A study of Homo sapiens with 9 samples.

Results

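The 10 genes described here encode the proteins that let calcium out of the endoplasmic reticulum (ER), pump it back, and call in calcium from outside the cell when the ER store runs low. They are the IP3 receptors ITPR1, ITPR2 and ITPR3, the pumps ATP2A2 and ATP2A3, the store sensors STIM1 and STIM2, and the plasma membrane channels ORAI1, ORAI2 and ORAI3. They were taken by name from the 36018 genes in the deposited count files, and all 10 were among the 17902 genes with enough reads to be tested. RNA sequencing covered 9 libraries labelled as HCT-15, a human colorectal adenocarcinoma cell line described as wild type. There were 3 libraries of a CoCl2-tolerant line, 3 of a low-glucose-tolerant line and 3 of untreated control cells. CoCl2 is a cobalt salt that mimics low oxygen. Each tolerant line was raised by growing the cells in increasing amounts of its stressor, so each tolerance is 1 derived line and its stressor cannot be told apart from the culture that selected it. All groups were kept in RPMI medium with 10% serum, whether the stressor was present at harvest is not stated in the labels, and a brefeldin A-tolerant line is not analysed here. The series concerns persistent ER stress, senescence and inositol hexaphosphate, and the comparisons ask in which genes a tolerant line stands apart from the control and from the other tolerant line.

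Inositol trisphosphate (IP3), made by phospholipase C at the plasma membrane, opens IP3 receptors in the ER membrane and calcium flows into the cytosol. SERCA pumps, the products of the ATP2A genes, use ATP to return it, and the chaperones of the ER lumen need that calcium to fold proteins. When the store empties, STIM proteins in the ER membrane lose calcium from their luminal domain, cluster beneath the plasma membrane and open ORAI channels, a route called store-operated calcium entry. Epithelial cells use these components for secretion, growth signals and survival. The counts below are of RNA and do not measure calcium, protein or channel activity.

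Gene counts summed to 25178615 to 27829153 in the CoCl2-tolerant libraries, 29971930 to 30115866 in the low-glucose-tolerant libraries and 30075024 to 32674687 in the control libraries. Levels are in CPM, counts scaled to library size with TMM factors, and 3 counts are worth 0.0883 to 0.121 CPM, depending on the library. Nothing in the labels says that replicates were grown as separate cultures, so p-values rest on a library-to-library spread that may be technical. Low-glucose-tolerant replicate 2 stood apart from its group on the second principal component (-19.9, against -0.734 and 1.59 for replicates 1 and 3). Values without it are given for ITPR1, ITPR3, ATP2A2 and the ITPR2 difference between the lines. Most other low-glucose-tolerant values are given only with it. Of 17 listed markers of intestinal epithelium in the files, 10 were under 1 CPM in every group, CDX1, CDX2, VIL1, CDH17 and KRT20 among them, while EPCAM, KRT8, KRT18 and KRT19 were well counted. The summed level of 7 fibroblast markers was 644 to 751 CPM in CoCl2-tolerant, 156 to 196 CPM in low-glucose-tolerant and 2493 to 2534 CPM in control libraries. It came almost wholly from COL1A1 and THY1, with LUM, DCN and COL3A1 under 1 CPM. The share of counts from the mitochondrial genome was 4.64 to 6.67% in CoCl2-tolerant, 4.74 to 5.196% in low-glucose-tolerant and 8.08 to 9.80% in control libraries. All 5 endothelial markers were under 1 CPM, and 4 of 5 leukocyte markers were. The part of any of these differences in the results below was not tested. In a bulk sample, fewer cells that express a gene and less of its RNA per cell cannot be told apart.

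In the low-glucose-tolerant line, the pump ATP2A2, the sensor STIM1 and all 3 ORAI channels were higher than in control, while the release channels ITPR1 and ITPR2 and the sensor STIM2 were lower. With edgeR (quasi-likelihood test, p-values adjusted by Benjamini-Hochberg over all tested genes), 8 of the 10 genes passed at an adjusted p under 0.05, 5 higher and 3 lower. Over all tested genes 69.2% passed in that comparison, 34.6% higher and 34.6% lower, so the share that passed was near the background. The CoCl2-tolerant line differed less. There ORAI3 was higher than in control and ITPR2, ATP2A3, STIM2 and ORAI2 were lower, 5 of 10 genes against 36.1% of all genes (17.9% higher and 18.2% lower). The median log2 fold change of the 10 genes was -0.36 in the CoCl2-tolerant and 0.24 in the low-glucose-tolerant comparison, beside 0.01 over all tested genes in the CoCl2-tolerant and -0.01 in the low-glucose-tolerant comparison. Between the lines, CoCl2-tolerant against low-glucose-tolerant, 2 of the 10 were higher and 6 lower, with 63.9% of all genes passing (31.9% higher and 32.0% lower). Both comparisons with control use the same 3 control libraries.

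**Figure D1:**
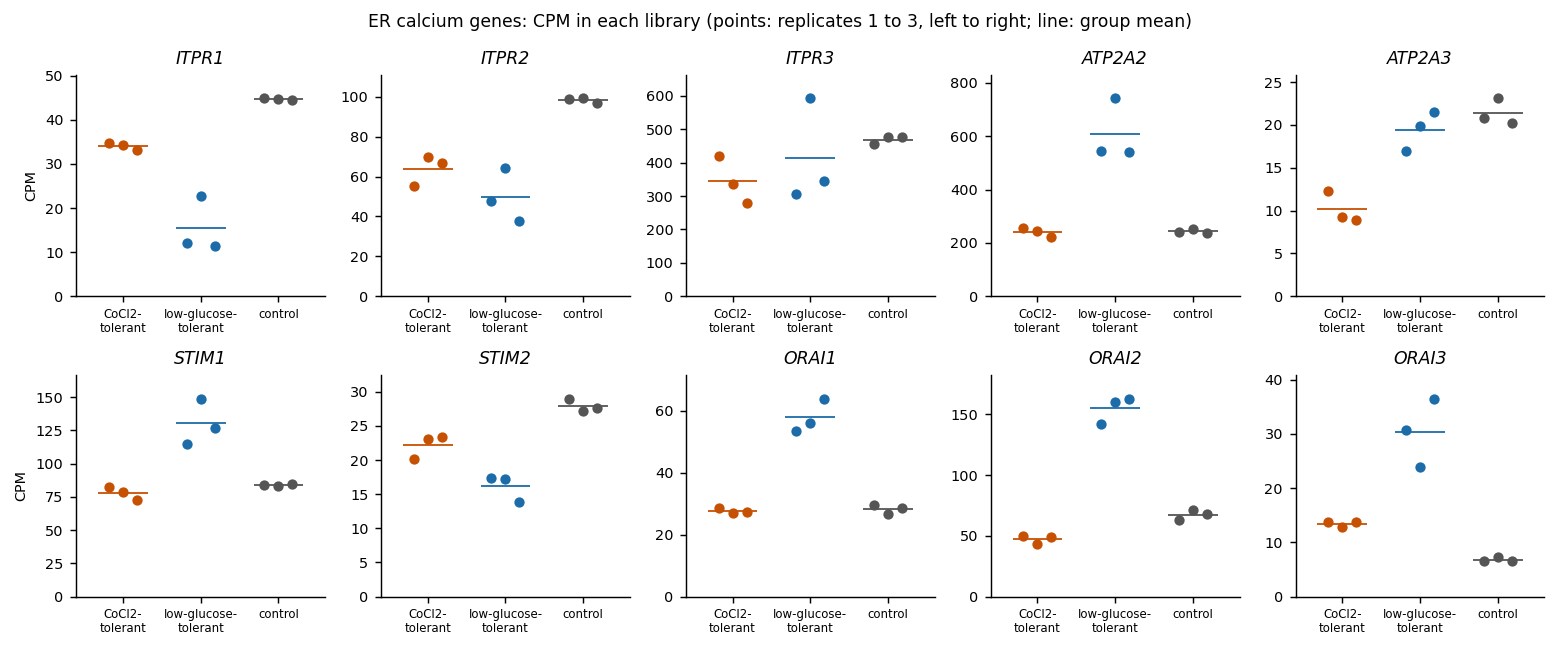
CPM of each of the 10 genes in every library, with CoCl2-tolerant, low-glucose-tolerant and control groups from left to right, 1 point per replicate and a line at the group mean. ATP2A2, STIM1 and the ORAI genes stand highest in the low-glucose-tolerant group, and ITPR1 lies at 11.3 to 22.8 CPM there, below 33.1 to 34.7 CPM in the CoCl2-tolerant and 44.5 to 44.9 CPM in the control group.

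**Figure D2:**
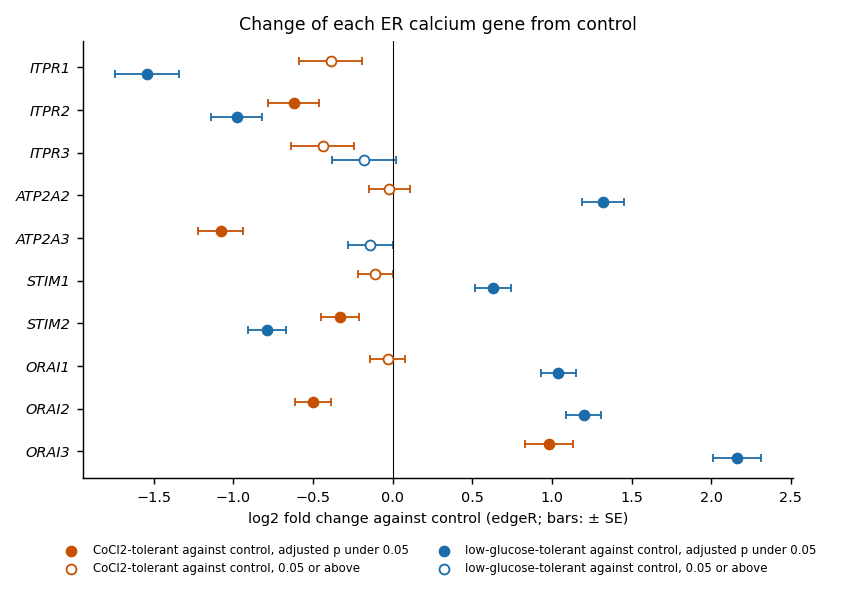
Log2 fold change of each gene against control by edgeR in the CoCl2-tolerant and the low-glucose-tolerant line, with bars of ± 1 SE. Filled points have an adjusted p under 0.05, and ORAI2 lies at -0.50 in the CoCl2-tolerant line and at 1.20 in the low-glucose-tolerant line.

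The promoters of the 3 genes that rose most in the low-glucose-tolerant line and of the gene that fell most are shown for orientation, because their levels moved the furthest. Each is the 250 bases before an annotated start in RefSeq (GRCh38.p14, plus strand, 5′ to 3′). RefSeq windows were matched for 7 of the 10 genes, ITPR1, ITPR3, ATP2A2, STIM1, STIM2, ORAI2 and ORAI3, and there were 11 windows in all, since ATP2A2 and STIM1 have several starts. ITPR2, ATP2A3 and ORAI1 had none. Capitals mark matches on either strand to the core of the unfolded protein response element (TGACGTGG), the core of the hypoxia response element (ACGTG, which lies inside TGACGTGG) or the ER stress response element without its last base (CCAAT, then 9 bases of any kind, then CCAC).
ORAI3, chr16:30948818-30949067: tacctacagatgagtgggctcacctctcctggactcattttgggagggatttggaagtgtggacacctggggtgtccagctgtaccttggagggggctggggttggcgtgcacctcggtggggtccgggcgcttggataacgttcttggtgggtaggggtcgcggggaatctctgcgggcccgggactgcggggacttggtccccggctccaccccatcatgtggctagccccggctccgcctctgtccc
ATP2A2, downstream of its 2 starts, chr12:110280997-110281246: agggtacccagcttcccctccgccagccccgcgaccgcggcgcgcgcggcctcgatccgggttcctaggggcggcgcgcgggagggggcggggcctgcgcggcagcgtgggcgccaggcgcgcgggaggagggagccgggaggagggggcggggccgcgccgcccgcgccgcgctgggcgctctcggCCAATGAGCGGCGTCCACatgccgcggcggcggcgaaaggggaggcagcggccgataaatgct
ORAI2, chr7:102433325-102433574: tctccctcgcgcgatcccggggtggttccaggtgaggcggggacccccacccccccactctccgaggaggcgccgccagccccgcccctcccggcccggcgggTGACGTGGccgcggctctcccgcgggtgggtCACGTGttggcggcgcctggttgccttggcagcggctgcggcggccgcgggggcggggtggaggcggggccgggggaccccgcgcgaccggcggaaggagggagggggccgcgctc
ITPR1, chr3:4493098-4493347: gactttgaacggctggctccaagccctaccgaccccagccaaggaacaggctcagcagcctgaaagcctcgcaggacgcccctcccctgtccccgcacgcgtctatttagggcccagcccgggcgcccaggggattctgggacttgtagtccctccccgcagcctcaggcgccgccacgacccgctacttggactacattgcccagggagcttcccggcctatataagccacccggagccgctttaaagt
The ORAI3 and ITPR1 windows held no match to these motifs. The ORAI2 window held TGACGTGG at bases 104 to 111, counted from its 5′ end, and a second stretch with ACGTG on both strands at bases 135 to 140. The letters TGACGTGG occur in 0.615% and ACGTG in 18.5% of 34943 RefSeq windows of the same length. The printed ATP2A2 window held CCAATGAGCGGCGTCCAC at bases 188 to 205, and this spaced pair occurs in 0.28% of windows. The window of the upstream ATP2A2 start, not printed, held no match to these motifs. The full element, which ends in CCACG, occurs in 0.0744% of windows and was in none of the 11. The cyclic AMP response element TGACGTCA (1.63% of windows) and the ATF response element TGATGNAA (3.15%) were also in none of the 11. These are matches of letters in short windows and do not show that a factor binds there.

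The IP3 receptors are the channels through which the ER releases calcium. ITPR1, best known from neurons but found in many tissues, lies on chromosome 3, 4493345 to 4847840 (GRCh38, GENCODE release 29, plus strand, gene ENSG00000150995). It had 34.7, 34.3 and 33.1 CPM in CoCl2-tolerant, 12.1, 22.8 and 11.3 CPM in low-glucose-tolerant and 44.9, 44.7 and 44.5 CPM in control libraries. The groups did not overlap, and replicate 2 was the highest of the low-glucose-tolerant libraries. In the low-glucose-tolerant line ITPR1 fell, with a log2 fold change of -1.54 ± 0.20 (SE, edgeR adjusted p = 1.01e-05), and -1.93 without replicate 2. The CoCl2-tolerant line had a log2 fold change of -0.39 ± 0.20 (edgeR adjusted p = 0.131). That value passed without low-glucose-tolerant replicate 2 (edgeR adjusted p = 0.00209) and in a fit of only the CoCl2-tolerant and control libraries (8.47e-04), at the same log2 fold change of -0.39, and with no filter on low counts (0.0251). ITPR1 was higher in the CoCl2-tolerant than in the low-glucose-tolerant line (log2 fold change 1.14 ± 0.20, edgeR adjusted p = 1.92e-04).

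ITPR2, a receptor known for its high affinity for IP3 and its role in secretory epithelia, lies on chromosome 12, 26336515 to 26833198 (minus strand, ENSG00000123104). It had 55.1, 70.0 and 66.8 CPM in CoCl2-tolerant, 47.9, 64.2 and 37.7 CPM in low-glucose-tolerant and 99.0, 99.2 and 96.6 CPM in control libraries. Every library of both tolerant lines lay below every control library, and the tolerant lines overlapped each other. ITPR2 fell in the CoCl2-tolerant line (log2 fold change -0.62 ± 0.16, edgeR adjusted p = 0.00783) and in the low-glucose-tolerant line (-0.98 ± 0.16, edgeR adjusted p = 8.17e-05). The difference between the lines was 0.36 ± 0.16 (edgeR adjusted p = 0.0633). It passed without low-glucose-tolerant replicate 2 (0.57, edgeR adjusted p = 0.00141) and without CoCl2-tolerant replicate 1 (0.45, 0.0298), and with library totals, no filter or a stricter filter (0.0278 to 0.0379).

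ITPR3, the isoform typical of epithelial and secretory cells, lies on chromosome 6, 33620365 to 33696574 (plus strand, ENSG00000096433). It had 421, 335 and 279.9 CPM in CoCl2-tolerant, 305, 593 and 346 CPM in low-glucose-tolerant and 455, 477 and 476 CPM in control libraries. Low-glucose-tolerant replicate 2 lay above every control library and replicates 1 and 3 below them, while the CoCl2-tolerant libraries all lay below the control. ITPR3 passed in no comparison with all libraries in the fit and low counts filtered out (log2 fold change -0.44 ± 0.20 and edgeR adjusted p = 0.106 in the CoCl2-tolerant line, -0.18 ± 0.20 and 0.450 in the low-glucose-tolerant line). The value for the low-glucose-tolerant line rests on 1 library. Without replicate 2 it was -0.52 and passed (edgeR adjusted p = 0.00460), and without replicate 1 it was 0.01 (0.965). For the CoCl2-tolerant line ITPR3 passed at the same size without low-glucose-tolerant replicate 2 (edgeR adjusted p = 0.0109), in the fit of the 2 groups alone (0.00955) and with no filter (0.00329), and at -0.60 without CoCl2-tolerant replicate 1 (0.0490). Of the ITPR3 exon bases, 10.4% lie opposite the gene UQCC2, and the strand setting of the counting is not given in the sources used here.

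ATP2A2 encodes SERCA2, the calcium pump of the ER in most cell types, and lies on chromosome 12, 110280756 to 110351093 (plus strand, ENSG00000174437). It had 255, 244 and 223 CPM in CoCl2-tolerant, 545, 742 and 541 CPM in low-glucose-tolerant and 241, 252 and 238 CPM in control libraries. The low-glucose-tolerant libraries were all above the rest, and the CoCl2-tolerant libraries overlapped the control. ATP2A2 rose in the low-glucose-tolerant line, 2.50-fold (log2 fold change 1.32 ± 0.13, edgeR adjusted p = 4.57e-07), and 1.16 on the log2 scale without replicate 2. In the CoCl2-tolerant line the log2 fold change was -0.02 ± 0.13 (edgeR adjusted p = 0.925, approximate 95% interval -0.26 to 0.23). The level is summed over transcripts that end in different SERCA2 isoforms, which gene counts do not separate.

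ATP2A3 encodes SERCA3, a pump of lower calcium affinity found in epithelial and blood cells and known to be lost as colon tumours dedifferentiate. It lies on chromosome 17, 3923870 to 3964464 (minus strand, ENSG00000074370). It had 12.3, 9.28 and 8.87 CPM in CoCl2-tolerant, 16.9, 19.9 and 21.5 CPM in low-glucose-tolerant and 20.8, 23.1 and 20.2 CPM in control libraries. All CoCl2-tolerant libraries lay below all others, and the low-glucose-tolerant libraries overlapped the control. ATP2A3 fell in the CoCl2-tolerant line (log2 fold change -1.08 ± 0.14, edgeR adjusted p = 6.46e-05). In the low-glucose-tolerant line it was at -0.14 ± 0.14 (edgeR adjusted p = 0.396, approximate 95% interval -0.41 to 0.14). The lines differed from each other by -0.94 ± 0.15 (edgeR adjusted p = 6.03e-05). The pump that passed in one line was not the pump that passed in the other, and both pumps differed between the lines in the direct test, ATP2A2 by -1.34 ± 0.13 (edgeR adjusted p = 5.32e-07).

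STIM1, the main sensor that opens ORAI channels after the store is emptied, lies on chromosome 11, 3854527 to 4093210 (plus strand, ENSG00000167323). It had 82.7, 79.0 and 72.4 CPM in CoCl2-tolerant, 115, 149 and 127 CPM in low-glucose-tolerant and 84.1, 83.2 and 84.8 CPM in control libraries. All low-glucose-tolerant libraries lay above the rest. STIM1 rose in the low-glucose-tolerant line (log2 fold change 0.63 ± 0.11, edgeR adjusted p = 1.66e-04). Its log2 fold change in the CoCl2-tolerant line was -0.11 ± 0.11 (edgeR adjusted p = 0.481, approximate 95% interval -0.33 to 0.11), although each library there lay just under the control libraries. STIM2, a sensor that responds to small drops in the store and keeps resting calcium up, lies on chromosome 4, 26857678 to 27025381 (plus strand, ENSG00000109689). It had 20.1, 23.1 and 23.3 CPM in CoCl2-tolerant, 17.3, 17.2 and 13.9 CPM in low-glucose-tolerant and 29.0, 27.2 and 27.6 CPM in control libraries. The 3 groups did not overlap, with the low-glucose-tolerant libraries lowest. STIM2 fell in the low-glucose-tolerant line (log2 fold change -0.79 ± 0.12, edgeR adjusted p = 4.09e-05). The value of the CoCl2-tolerant line was -0.33 ± 0.12 and just passed (edgeR adjusted p = 0.0408). That call ended without any single CoCl2-tolerant or control library, at edgeR adjusted p of 0.125, 0.0697 and 0.0756 without CoCl2-tolerant replicates 1, 2 and 3 and of 0.140, 0.0910 and 0.103 without control replicates 1, 2 and 3. It also ended with library totals as the scale (0.0559) and with no filter (0.0862). The log2 fold changes of these fits were -0.37 to -0.26.

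ORAI1, the pore-forming channel of store-operated entry in most cells, lies on chromosome 12, 121626550 to 121642677 (plus strand, ENSG00000276045). It had 28.6, 27.1 and 27.4 CPM in CoCl2-tolerant, 53.6, 56.1 and 64.0 CPM in low-glucose-tolerant and 29.5, 26.6 and 28.7 CPM in control libraries. Every low-glucose-tolerant library lay above every other. ORAI1 rose 2.05-fold in the low-glucose-tolerant line (log2 fold change 1.04 ± 0.11, edgeR adjusted p = 1.07e-06). The CoCl2-tolerant libraries lay among the control ones (log2 fold change -0.03 ± 0.11, edgeR adjusted p = 0.866, approximate 95% interval -0.24 to 0.19).

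ORAI2, a channel that can join ORAI1 in mixed pores and lower their current, lies on chromosome 7, 102433106 to 102456821 (plus strand, ENSG00000160991). It had 50.2, 43.5 and 49.3 CPM in CoCl2-tolerant, 142, 160.1 and 163 CPM in low-glucose-tolerant and 63.0, 71.1 and 68.3 CPM in control libraries. The 3 groups did not overlap, with the CoCl2-tolerant line below and the low-glucose-tolerant line above the control. ORAI2 fell in the CoCl2-tolerant line (log2 fold change -0.50 ± 0.11, edgeR adjusted p = 0.00251) and rose in the low-glucose-tolerant line (1.20 ± 0.11, edgeR adjusted p = 2.19e-07). The direct difference between the lines was -1.70 ± 0.11 (edgeR adjusted p = 9.74e-09). It was the widest of the 10 genes in that comparison, and ORAI2 was the only one of them that passed in opposite directions in the 2 lines. Over all 17902 tested genes, 2.55% passed lower in the CoCl2-tolerant and higher in the low-glucose-tolerant line. Another 2.49% passed the other way round. Of the ORAI2 exon bases 5.26% lie opposite ALKBH4, which had 619, 1272 and 610 counts summed over the CoCl2-tolerant, low-glucose-tolerant and control libraries, beside 3886, 13333 and 6503 counts of ORAI2.

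ORAI3, a channel found in mammals that can also form pores gated by arachidonic acid, lies on chromosome 16, 30949066 to 30956461 (plus strand, ENSG00000175938). It had 13.7, 12.8 and 13.7 CPM in CoCl2-tolerant, 30.7, 23.8 and 36.5 CPM in low-glucose-tolerant and 6.63, 7.21 and 6.52 CPM in control libraries. The groups did not overlap, and both tolerant lines lay above the control. ORAI3 rose 1.97-fold in the CoCl2-tolerant line (log2 fold change 0.98 ± 0.15, edgeR adjusted p = 1.99e-04) and 4.46-fold in the low-glucose-tolerant line (2.16 ± 0.15, edgeR adjusted p = 1.57e-08). The lines differed by -1.18 ± 0.14 (edgeR adjusted p = 6.70e-06). Of the ORAI3 exon bases 52.9% are shared on the same strand with a processed transcript, ENSG00000261487, which itself had 1, 5 and 1 counts summed over the CoCl2-tolerant, low-glucose-tolerant and control libraries. Whether reads in shared bases were dropped or kept is not given in the sources used here, so the level of ORAI3 is uncertain.

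Within a family the levels are comparable between genes only per length. Here the counts were divided by the bases covered by any annotated exon and scaled to the same total in each library (TPM). ITPR3 made up most of the IP3 receptor RNA, with 84.8 ± 3.54% of the family's level in CoCl2-tolerant, 90.3 ± 1.79% in low-glucose-tolerant and 84.0 ± 0.457% in control libraries (mean ± SD, n = 3 each). ITPR2 held 12.6 ± 3.19% in CoCl2-tolerant, 8.70 ± 1.75% in low-glucose-tolerant and 13.6 ± 0.398% in control libraries. The least abundant, ITPR1, held 2.59 ± 0.360% in CoCl2-tolerant, 1.01 ± 0.0910% in low-glucose-tolerant and 2.43 ± 0.0628% in control libraries. The ITPR1 share was lowest in the low-glucose-tolerant libraries (0.908 to 1.07%), with no overlap with the CoCl2-tolerant (2.23 to 2.95%) or the control libraries (2.40 to 2.51%). The ITPR1 share depends on the length used. Its exons cover 32454 bases, against 10197 in its longest transcript, and with the longest transcript its shares were 7.70% in CoCl2-tolerant, 3.12% in low-glucose-tolerant and 7.24% in control libraries.

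Among ORAI channels, ORAI3 held 23.5 ± 0.379% in CoCl2-tolerant, 22.4 ± 3.19% in low-glucose-tolerant and 12.2 ± 0.794% in control libraries. ORAI1 was the most abundant per length in every library, at 56.7 ± 1.05% in CoCl2-tolerant, 50.2 ± 1.09% in low-glucose-tolerant and 59.1 ± 2.63% in control libraries. ORAI2 held 19.8 ± 0.834% in CoCl2-tolerant, 27.4 ± 2.16% in low-glucose-tolerant and 28.8 ± 1.99% in control libraries. STIM1 made up 77.3 ± 2.47% of the STIM level in CoCl2-tolerant, 88.6 ± 1.78% in low-glucose-tolerant and 74.4 ± 0.623% in control libraries. ATP2A2 made up 92.3 ± 0.930% of the level of the 2 SERCA genes in CoCl2-tolerant, 93.9 ± 1.16% in low-glucose-tolerant and 85.1 ± 0.538% in control libraries. Every library of both tolerant lines had a higher ATP2A2 share than any control library, with ATP2A3 lower in the CoCl2-tolerant line and ATP2A2 higher in the low-glucose-tolerant line by the tests above. With 3 libraries against 3, an exact permutation test cannot go below 0.10, so the shares are given as values with no test.

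**Figure D3:**
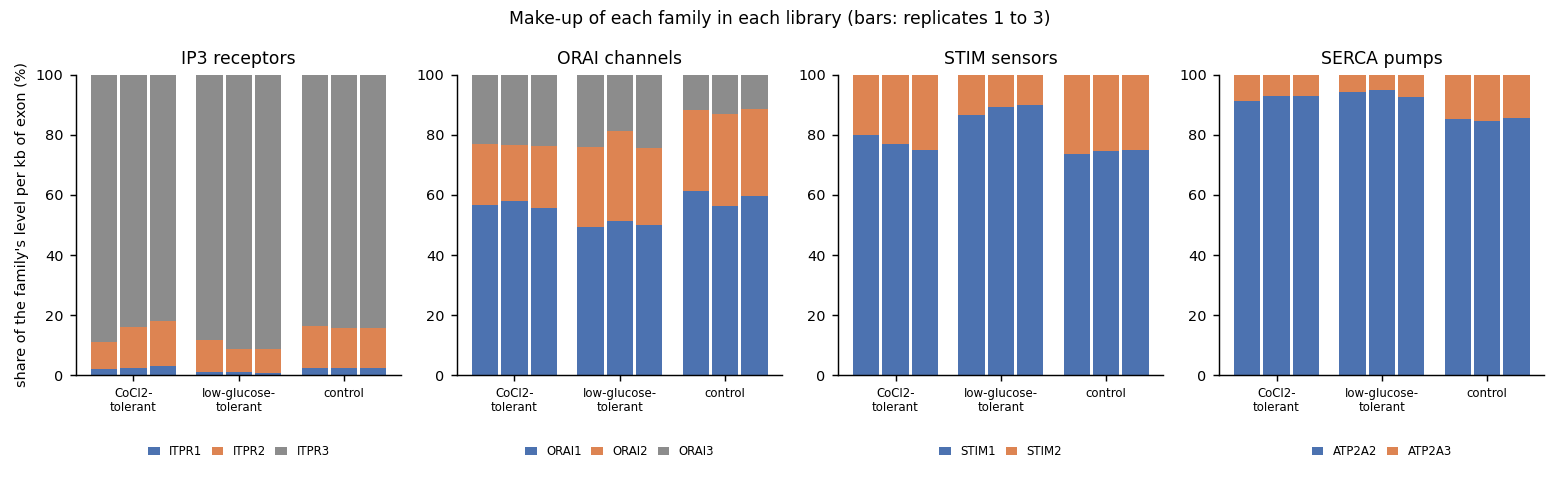
Share of each gene in its family's summed level per kb of exon, in percent, with 1 bar per library in the order CoCl2-tolerant, low-glucose-tolerant and control. ITPR3, ORAI1, STIM1 and ATP2A2 are the largest part of their families in every library, and ITPR1 is under 3% in each.

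Per length and over all 10 genes, ITPR3 was the highest in all groups but the low-glucose-tolerant, at 125 ± 23.4 TPM in CoCl2-tolerant and 165 ± 8.65 TPM in control, followed by ATP2A2 at 62.5 ± 2.83 TPM in CoCl2-tolerant and 61.7 ± 4.18 TPM in control libraries (SD, n = 3 each). In the low-glucose-tolerant libraries ATP2A2 came first at 139 ± 35.3 TPM and ITPR3 followed at 133 ± 58.1 TPM, and their ranges overlapped (113 to 179 and 96.9 to 199.6 TPM). The next places went to ORAI1 and STIM1 in every group, and ITPR1 was last at 3.75 ± 0.0142 TPM in CoCl2-tolerant, 1.50 ± 0.728 TPM in low-glucose-tolerant and 4.79 ± 0.192 TPM in control libraries. In the CoCl2-tolerant group the range of ITPR2 overlapped those of its neighbours ORAI3 and ORAI2, which did not overlap each other. In the low-glucose-tolerant group ATP2A3 overlapped its neighbours ITPR2 and STIM2, which did not overlap each other, and in the control group ATP2A3 overlapped ORAI3. With the longest transcript in place of all exon bases, ATP2A2 was first in the CoCl2-tolerant group too (113 ± 4.90 TPM, ranges overlapping with ITPR3 at 93.6 ± 16.8 TPM), and STIM1 lay above ORAI1 in every group, with ranges that overlapped in the low-glucose-tolerant one. At that length ATP2A3 was last in the CoCl2-tolerant and ORAI3 in the control group.

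The balance of the families within a library does not depend on the scaling between libraries. The ratio of summed SERCA to summed IP3 receptor level was 0.422, 0.472 and 0.507 in CoCl2-tolerant, 1.20, 0.864 and 1.11 in low-glucose-tolerant and 0.372, 0.377 and 0.355 in control libraries. The groups did not overlap, and low-glucose-tolerant replicate 2, which had the most ITPR3, had the lowest ratio of its group. Summed ORAI to summed STIM stood at 1.54, 1.44 and 1.61 in CoCl2-tolerant, 2.59, 2.06 and 2.86 in low-glucose-tolerant and 1.33, 1.34 and 1.34 in control libraries. The ratio of STIM1 to STIM2 was 3.98, 3.32 and 3.01 in CoCl2-tolerant, 6.43, 8.37 and 8.86 in low-glucose-tolerant and 2.81, 2.96 and 2.98 in control libraries. These ratios were chosen after the values were seen and carry no test. With longest transcripts the mean SERCA to IP3 receptor ratio was 1.02 ± 0.0846 in CoCl2-tolerant, 2.41 ± 0.389 in low-glucose-tolerant and 0.779 ± 0.0227 in control libraries, so the order of the groups did not depend on the length used while the level of the ratio did.

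**Figure D4:**
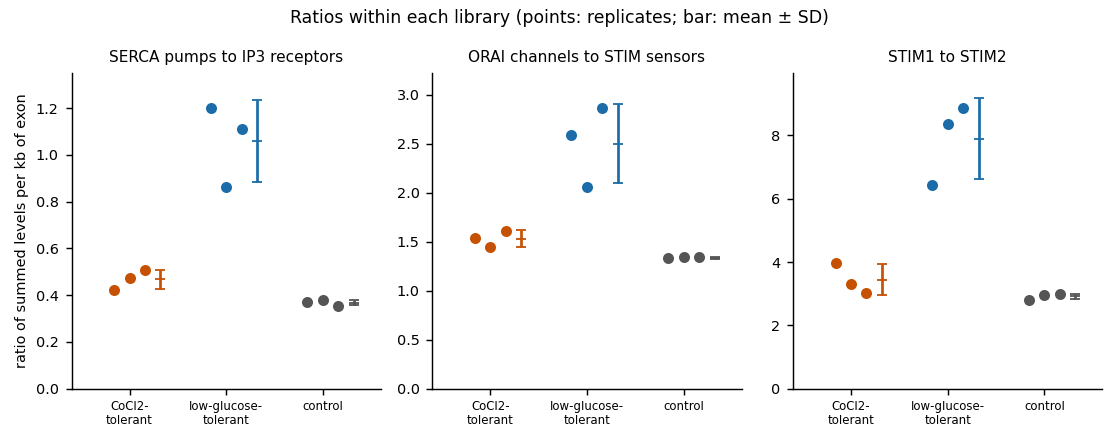
Ratios of levels per kb of exon within each library, with 1 point per replicate and a bar of mean ± SD, for SERCA to IP3 receptors, ORAI to STIM, and STIM1 to STIM2. In all 3 panels the low-glucose-tolerant points lie above those of the CoCl2-tolerant and the control groups, at 0.864 to 1.20 in the first panel.

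The genes most like ORAI3, ORAI2 and ITPR1, the 3 with the widest range of group means on the log2 CPM scale (2.13, 1.70 and 1.61), were sought among 10596 protein-coding genes with at least 5 CPM on average. Likeness was the root mean square difference of log2 CPM over the 9 libraries after centring each gene. The nearest to ORAI3 were EIF1, SEC11C and BRI3 (0.0924, 0.0957 and 0.108). EIF1, a factor that helps the ribosome choose its start codon, was at 455 ± 46.3 CPM in CoCl2-tolerant, 1125 ± 206 CPM in low-glucose-tolerant and 254 ± 7.04 CPM in control libraries. SEC11C, a subunit of the signal peptidase of the ER, was at 17.7 ± 0.992 CPM in CoCl2-tolerant, 37.6 ± 6.34 CPM in low-glucose-tolerant and 8.91 ± 0.267 CPM in control libraries. Nearest to ORAI2 were the potassium channel gene KCNK6, MID1IP1 and the chemokine gene CX3CL1 (0.0666, 0.0793 and 0.0890). Nearest to ITPR1 were TRIO, IGF1R and BOD1L1 (0.0807, 0.0900 and 0.107), with the growth factor receptor gene IGF1R at 166 ± 5.38 CPM in CoCl2-tolerant, 71.6 ± 24.5 CPM in low-glucose-tolerant and 194 ± 5.36 CPM in control libraries. The likeness is a description over the 9 libraries.

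Genes that work beside these channels and pumps were followed in 9 wider lists of 132 genes, of which 109 were tested. Of these, 21 were higher in the CoCl2-tolerant line and 24 lower, 41.3% of those tested, against 36.1% of all genes. In the low-glucose-tolerant line 48 were higher and 30 lower, against 34.6% of all genes in each direction. Their median log2 fold change was 0.04 in the CoCl2-tolerant and 0.20 in the low-glucose-tolerant line, beside 0.01 and -0.01 over all tested genes. The CoCl2-tolerant counts were 8 to 10 higher and 13 to 15 lower when any control library was left out, and 9 and 15 without CoCl2-tolerant replicate 3. In that line 13 of the 30 genes that the naming rule gives lost their call without at least 1 library. Among them are AHCYL2, PLCG1, PLCD1, SLC8A1, ATP2B1, CRACR2B, SARAF, PSEN2, TMBIM4, SEC61A1, HSPA5 and SMDT1, with edgeR adjusted p up to 0.163 (PLCD1), and none of the 13 is described further for that line. ASPH was, in the low-glucose-tolerant line, the only one of 34 such genes to lose its call (edgeR adjusted p = 0.117).

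**Figure D5:**
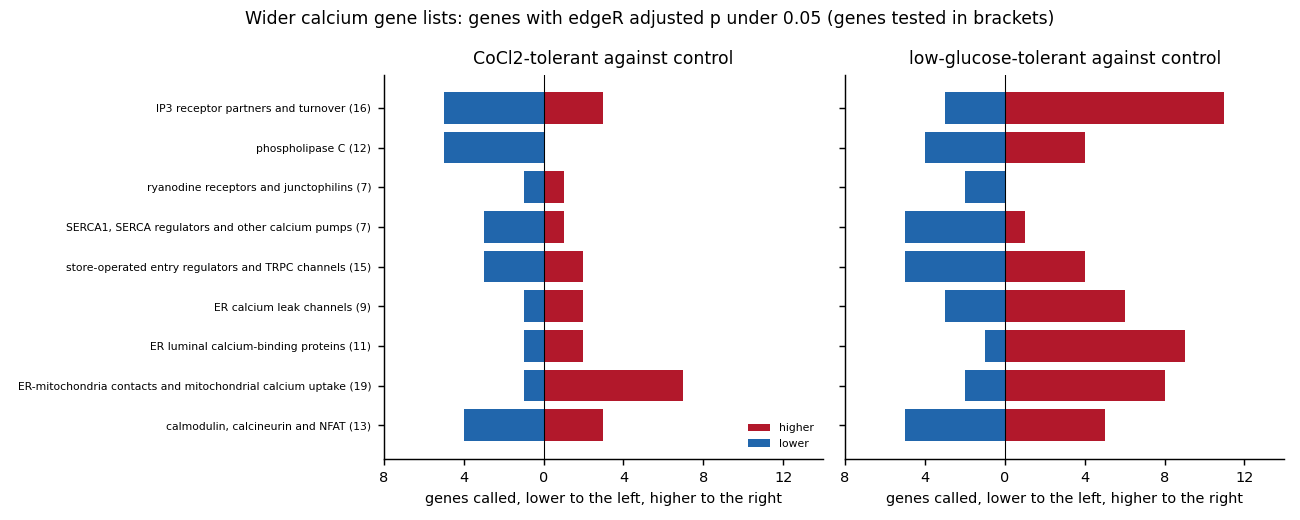
Number of genes with an edgeR adjusted p under 0.05 in each wider list, higher to the right and lower to the left, with the number tested in brackets, for the CoCl2-tolerant and the low-glucose-tolerant line against control. In the low-glucose-tolerant line 9 of 11 ER luminal calcium-binding genes were higher and 1 lower. Over all tested genes 34.6% were higher and 34.6% lower in that line.

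Phospholipase C enzymes make the IP3 that opens the receptors. Of 12 tested genes, 5 fell and 7 did not pass in the CoCl2-tolerant line, and 4 rose and 4 fell in the low-glucose-tolerant line. The shares called were 41.7% in the CoCl2-tolerant and 66.7% in the low-glucose-tolerant line, against 36.1% and 69.2% of all genes. PLCE1, an isoform driven by RAS-family GTPases, fell in both, to 12.7 ± 1.03 CPM in CoCl2-tolerant and 11.0 ± 1.96 CPM in low-glucose-tolerant, against 34.3 ± 0.628 CPM in control libraries (edgeR adjusted p = 2.09e-06 and 7.95e-08). PLCB3, an isoform activated by G proteins, fell in the CoCl2-tolerant line, to 64.7 ± 7.19 CPM against 90.8 ± 2.51 CPM in control (edgeR adjusted p = 0.00385). PLCB3 was also lower in the low-glucose-tolerant line, at 51.4 ± 4.56 CPM (edgeR adjusted p = 1.48e-05). PLCB4, another isoform activated by G proteins, passed as lower in the CoCl2-tolerant line, at 401 ± 39.9 CPM (edgeR adjusted p = 0.0294). Fits with a library left out are not reported here for that call. PLCB4 fell further in the low-glucose-tolerant line, to 227 ± 26.2 CPM against 509 ± 11.7 CPM in control. PLCH1 rose there to 12.6 ± 2.84 CPM against 2.75 ± 0.329 CPM in control, and PLCD1 to 25.9 ± 1.92 CPM against 11.4 ± 0.840 CPM in control (edgeR adjusted p = 5.89e-07, 6.60e-08 and 1.50e-06 for PLCB4, PLCH1 and PLCD1).

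Of 16 tested partners of the IP3 receptors, 3 rose and 5 fell in the CoCl2-tolerant line, and 11 rose and 3 fell in the low-glucose-tolerant line. Over all tested genes, 36.1% were called in the CoCl2-tolerant and 69.2% in the low-glucose-tolerant line. BCL2, a survival protein that binds the receptors and lowers calcium release, fell to 23.3 ± 0.484 CPM in CoCl2-tolerant and 13.4 ± 2.16 CPM in low-glucose-tolerant, against 43.9 ± 1.94 CPM in control libraries (edgeR adjusted p = 6.67e-05 and 2.97e-08). Its relative BCL2L1, which encodes BCL-XL, rose to 299 ± 21.2 CPM in CoCl2-tolerant and 463 ± 46.5 CPM in low-glucose-tolerant libraries, against 201 ± 5.61 CPM in control (edgeR adjusted p = 9.06e-04 and 2.02e-07), with 43.0% of its exon bases shared with other genes. PKD2, a polycystin channel of the ER, fell in the CoCl2-tolerant line, to 51.0 ± 3.07 CPM against 73.4 ± 1.64 CPM in control (edgeR adjusted p = 0.00283). PKD2 passed in the other direction in the low-glucose-tolerant line, at 91.9 ± 12.6 CPM (edgeR adjusted p = 0.0205), a call that ended without any 1 control library (up to 0.0699). ERP44, a luminal thioredoxin-family protein that inhibits ITPR1, rose in the low-glucose-tolerant line, to 78.7 ± 10.2 CPM against 36.4 ± 1.91 CPM in control (edgeR adjusted p = 2.38e-06). ITPRIPL2 rose there to 78.7 ± 22.7 CPM against 30.5 ± 3.74 CPM in control (edgeR adjusted p = 5.05e-06).

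Regulators of store-operated entry and TRPC channels did not move one way. Of 15 tested genes, 2 rose and 3 fell in the CoCl2-tolerant line, and 4 rose and 5 fell in the low-glucose-tolerant line. Called genes made up 33.3% in the CoCl2-tolerant and 60.0% in the low-glucose-tolerant line, against 36.1% and 69.2% of all genes. The ORAI regulators CRACR2A and CRACR2B, which help form the complex of STIM1 and ORAI1, rose in the low-glucose-tolerant line to 8.04 ± 2.31 and 19.2 ± 5.70 CPM, against 3.33 ± 0.151 and 7.14 ± 0.383 CPM in control (edgeR adjusted p = 3.77e-05 and 1.35e-05). ESYT2, a tether between the ER and the plasma membrane, rose there to 357 ± 46.3 CPM against 135 ± 1.64 CPM in control (edgeR adjusted p = 4.98e-08). TRPC4, a cation channel of the TRPC family, fell in the CoCl2-tolerant line to 6.87 ± 0.194 CPM against 10.7 ± 0.117 CPM in control (edgeR adjusted p = 0.00113). It was lower in the low-glucose-tolerant line as well, at 5.65 ± 0.477 CPM (edgeR adjusted p = 1.23e-05).

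Among SERCA1, the SERCA regulators and other calcium pumps, 7 genes were tested, and 1 rose and 3 fell in the CoCl2-tolerant line and 1 rose and 5 fell in the low-glucose-tolerant line. This made 57.1% called in the CoCl2-tolerant and 85.7% in the low-glucose-tolerant line, against 36.1% and 69.2% of all genes. ATP2B4, a plasma membrane calcium pump, fell to 75.1 ± 4.70 CPM in CoCl2-tolerant and 72.3 ± 23.7 CPM in low-glucose-tolerant, against 119.8 ± 4.57 CPM in control libraries (edgeR adjusted p = 0.00714 and 0.00158). ATP2B1, a related pump, fell in the low-glucose-tolerant line to 49.1 ± 6.68 CPM against 85.5 ± 1.08 CPM in control (edgeR adjusted p = 3.07e-05). ATP2A1, the SERCA gene of fast muscle, fell there to 1.61 ± 0.0431 CPM against 3.75 ± 0.684 CPM in control, and ATP2C2, a Golgi pump that can also open ORAI1, to 1.10 ± 0.257 CPM against 2.23 ± 0.155 CPM in control (edgeR adjusted p = 5.19e-05 and 5.99e-04). The muscle SERCA inhibitors PLN, SLN and MRLN had at most 4 counts summed over the 3 libraries of any group. Among ryanodine receptors, the release channels of muscle and neurons, RYR1 and RYR2 were below the filter. RYR3 fell in the low-glucose-tolerant line, to 4.27 ± 1.69 CPM against 16.2 ± 0.458 CPM in control (edgeR adjusted p = 1.46e-06). In that list 1 of 7 tested genes rose and 1 fell in the CoCl2-tolerant line, and 2 fell and 5 did not pass in the low-glucose-tolerant line. In each line 28.6% were called, against 36.1% of all genes in the CoCl2-tolerant and 69.2% in the low-glucose-tolerant line. The gene that rose in the CoCl2-tolerant line was ASPH, whose transcripts also encode the junctional protein junctin, at 279.8 ± 17.4 CPM against 176 ± 3.71 CPM in control (edgeR adjusted p = 3.17e-04). It passed in the other direction in the low-glucose-tolerant line, at 144 ± 16.8 CPM (edgeR adjusted p = 0.0280), the call that ended with a library left out.

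Of 11 genes for calcium-binding proteins of the ER lumen, 2 rose and 1 fell in the CoCl2-tolerant line and 9 rose and 1 fell in the low-glucose-tolerant line. The shares called were 27.3% in the CoCl2-tolerant and 90.9% in the low-glucose-tolerant line, against 36.1% and 69.2% of all genes. CALR, the store's main buffer calreticulin, was at 2766 ± 246 CPM in low-glucose-tolerant against 824 ± 39.8 CPM in control libraries (edgeR adjusted p = 3.89e-09). The chaperone HSP90B1 was at 2032 ± 414 CPM in low-glucose-tolerant against 782 ± 51.7 CPM in control (edgeR adjusted p = 1.17e-06), and HSPA5, the sensor chaperone BiP, at 6120.4 ± 618 CPM in low-glucose-tolerant against 532 ± 9.26 CPM in control (edgeR adjusted p = 1.62e-11). RCN3, a reticulocalbin, was the gene that fell there, to 1.29 ± 0.436 CPM against 2.83 ± 0.530 CPM in control (edgeR adjusted p = 9.57e-04). RCN1 rose in the CoCl2-tolerant line to 205 ± 14.7 CPM against 122 ± 0.875 CPM in control and CALU fell to 299 ± 23.7 CPM against 399 ± 7.00 CPM in control (edgeR adjusted p = 2.77e-04 and 0.00727). RCN1 was also higher in the low-glucose-tolerant line, at 169 ± 26.5 CPM (edgeR adjusted p = 0.00283). Of 9 genes linked to calcium leak from the ER, 6 rose and 3 fell in the low-glucose-tolerant line, and 2 rose and 1 fell in the CoCl2-tolerant line. All 9 were thus called in the low-glucose-tolerant line, where 69.2% of all genes were. In the CoCl2-tolerant line 33.3% were called, near the 36.1% of all genes. TMBIM6, an ER membrane protein that lowers the store's content and protects from ER stress, rose to 1419.9 ± 35.2 CPM in low-glucose-tolerant against 632 ± 12.6 CPM in control (edgeR adjusted p = 7.05e-08). SEC61A1, the pore of the translocon, rose in the low-glucose-tolerant line to 509.9 ± 43.5 CPM against 235 ± 10.1 CPM in control while SEC61A2, its less abundant relative, fell to 5.20 ± 0.0823 CPM against 13.0 ± 0.963 CPM in control (edgeR adjusted p = 7.61e-07 and 3.02e-07).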

How the data were processed

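The deposited files hold raw read counts per gene, 1 file per library, and list the same 36018 genes. The submitters' processing notes name featureCounts, DESeq2 and the build GRCh38. The sources used here do not give the aligner, the annotation release or the strand setting. Per the labels' protocols, RNA was extracted with TRIzol and its mRNA fraction was fragmented, made into libraries and read on an Illumina instrument. Symbols came from a name table (35938 genes) or GENCODE release 29 (76 more), which also gave positions, exon lengths and overlaps for 34888 genes.

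The test was edgeR 4.0.16 in R 4.3.3, its quasi-likelihood F test on the 17902 genes passing filterByExpr, fitted to all 9 libraries with 1 mean per group, TMM factors of 0.922 to 1.044 and no covariate. The biological coefficient of variation was 12.6%. Adjustment was by Benjamini-Hochberg within a comparison, and genes were called under 0.05. Each SE was derived as the absolute log2 fold change divided by the square root of the F statistic. The approximate 95% intervals take a normal distribution, which makes them narrow for so few libraries. CPM use the counts of tested genes times the TMM factor. The steps were also run on simulated data with known changes in the CoCl2-tolerant group only and the same spread for every gene. The outcome is not reported here.

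Alternatives were DESeq2 1.42.0 (its Wald test, or its size factors within edgeR), scaling by library totals, no filter, a minimum of 5 CPM in 3 or more libraries, fitting the 2 groups alone, the replicate number as a block, and each library left out. Libraries of a group differed by more than counting error (chi-squared per degree of freedom 2.18 to 66.7), and each was treated as a replicate in the fits. That spread may be technical and does not show that the libraries came from separate cultures. The genes and lists were chosen with earlier results of these data known. All 10 genes are named. From each list the rule names up to 4 called genes per comparison with control, those with the largest change whose higher group mean reaches 1 CPM, and for the 3 genes with the widest range the 3 most alike. CASQ2, STRIT1, ERLN, ARLN, SLC8A3, PHGR1 and CEACAM5 were not analysed here. Values of a few other listed genes are not reported here. Promoter sequences are from RefSeq. Figures used Python 3.11.15 and matplotlib 3.10.9.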

Additional observations from a re-analysis of the deposited data

Results flagged for a closer look

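ORAI2 was the 1 gene of the 10 that passed the test against control in opposite directions in the 2 tolerant lines, with the difference between the lines tested directly. Its pattern, lower in the CoCl2-tolerant and higher in the low-glucose-tolerant line, held for 2.55% of all tested genes, and the reverse for 2.49%. ORAI2 averaged 47.7 ± 3.66 CPM in CoCl2-tolerant, 155 ± 11.5 CPM in low-glucose-tolerant and 67.5 ± 4.15 CPM in control libraries (SD, n = 3 each). The log2 difference, CoCl2-tolerant against low-glucose-tolerant, was -1.70 ± 0.11 (edgeR adjusted p = 9.74e-09). All 3 CoCl2-tolerant libraries lay below all 3 low-glucose-tolerant ones. Over the alternatives the difference ranged from -1.77 to -1.61 and the edgeR or DESeq2 adjusted p from 3.47e-48 to 2.30e-07.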

How the results depend on the processing

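The replicate numbers did not pair the libraries: residuals of libraries with the same number correlated at -0.26 to 0.124 and of others at -0.242 to 0.205. With the replicate number as a block 6091 genes changed in the CoCl2-tolerant and 12118 in the low-glucose-tolerant line, against 6459 and 12394 without it, and of the 10 genes it altered the call of STIM2 in the CoCl2-tolerant line (edgeR adjusted p = 0.0711) and of ITPR2 between the lines (0.0387). The number of the 10 genes called in each direction stayed within 1.5 times under each alternative. In the CoCl2-tolerant line 4 were called lower, and 3 to 6 with each library left out. Both the fit of the 2 groups alone and the fit without low-glucose-tolerant replicate 2 called 6 lower, with ITPR1 and ITPR3 added. Library totals as the scale moved the median of all genes in the low-glucose-tolerant line to -0.11 (log2). With each library left out, 8 to 29 listed genes were higher and 13 to 24 lower in the CoCl2-tolerant line. Signs turned for uncalled values: ATP2A2 in the CoCl2-tolerant line (0.03 without CoCl2-tolerant replicate 3, 0.00 without control replicate 2, range -0.05 to 0.03 with each library left out), ORAI1 there (0.00 without control replicate 1, range -0.07 to 0.00), and ITPR3 (0.01 in the low-glucose-tolerant line without its replicate 1, range -0.52 to 0.01, and 0.08 between the lines without low-glucose-tolerant replicate 2, range -0.45 to 0.08). The cause of these was not tested.

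Family shares changed with the length by construction. With the longest transcript they were, in CoCl2-tolerant, low-glucose-tolerant and control libraries, 7.70, 3.12 and 7.24% for ITPR1, 79.2, 87.5 and 78.5% for ITPR3, 80.6, 90.4 and 78.1% for STIM1 and 95.3, 96.3 and 90.6% for ATP2A2. ITPR2 moved to 14.2% in control, ORAI1, ORAI2 and ORAI3 to 55.3, 18.8 and 25.9% in CoCl2-tolerant and ORAI3 to 13.7% in control libraries. As shares of counts, they were 7.77, 3.18 and 7.30% for ITPR1, 77.5, 86.1 and 76.6% for ITPR3, 31.2, 23.8 and 27.6% for ORAI1, 53.6, 63.8 and 65.8% for ORAI2, 15.1, 12.5 and 6.62% for ORAI3 and 96.0, 96.8 and 91.9% for ATP2A2, with ITPR2 at 10.7% in low-glucose-tolerant and 16.1% in control libraries. The SERCA to IP3 receptor, ORAI to STIM and STIM1 to STIM2 ratios and their alternatives were chosen after seeing the data.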

Other observations

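Calmodulin, calcineurin and NFAT read the calcium signal in the cytosol. Of 13 tested genes, 3 rose and 4 fell in the CoCl2-tolerant line, 53.8% against 36.1% of all genes. The low-glucose-tolerant line had 5 that rose and 5 that fell, 76.9% against 69.2% of all genes. RCAN1, a calcineurin regulator that is itself induced by calcineurin and NFAT, rose to 12.9 ± 1.15 CPM in CoCl2-tolerant and 31.1 ± 3.15 CPM in low-glucose-tolerant, against 7.72 ± 0.758 CPM in control libraries (edgeR adjusted p = 6.59e-04 and 7.69e-09). NFATC1, a transcription factor activated by calcineurin, rose in the low-glucose-tolerant line, to 17.4 ± 1.18 CPM against 3.38 ± 0.192 CPM in control (edgeR adjusted p = 1.91e-09). In the CoCl2-tolerant line it was at 2.50 ± 0.249 CPM (edgeR adjusted p = 0.0338), a call that ended without any 1 CoCl2-tolerant or control library (up to 0.124). NFATC2 fell in the CoCl2-tolerant line, to 3.09 ± 0.526 CPM against 10.9 ± 0.202 CPM in control, and NFATC3 to 12.8 ± 1.61 CPM against 21.2 ± 0.893 CPM in control (edgeR adjusted p = 2.48e-05 and 0.00486). RCAN2, a relative of RCAN1, had 5 counts summed over the low-glucose-tolerant libraries against 415 in control (edgeR adjusted p = 4.82e-10) and 328 in the CoCl2-tolerant libraries. CALM3, a calmodulin gene, fell to 193 ± 16.7 CPM in CoCl2-tolerant and 121 ± 11.3 CPM in low-glucose-tolerant, against 305 ± 10.1 CPM in control (edgeR adjusted p = 3.04e-04 and 7.77e-08).

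At the contacts between ER and mitochondria, 7 of 19 tested genes rose and 1 fell in the CoCl2-tolerant line, 42.1% against 36.1% of all genes. The low-glucose-tolerant line had 8 that rose and 2 that fell, 52.6% against 69.2% of all genes. MCU, the pore of the mitochondrial calcium uniporter, was the gene that fell in the CoCl2-tolerant line, to 52.4 ± 7.68 CPM against 84.0 ± 3.34 CPM in control (edgeR adjusted p = 5.91e-04). The outer membrane channel VDAC2 rose to 163 ± 14.6 CPM in CoCl2-tolerant and 192 ± 31.1 CPM in low-glucose-tolerant, against 99.1 ± 2.90 CPM in control (edgeR adjusted p = 5.16e-04 and 8.97e-06). HSPA9, the chaperone that links VDAC to IP3 receptors, rose in the CoCl2-tolerant line, to 719 ± 17.2 CPM against 453 ± 14.9 CPM in control (edgeR adjusted p = 1.55e-04). In the low-glucose-tolerant line it was higher too, at 805 ± 62.3 CPM (edgeR adjusted p = 4.12e-06). VDAC1 fell in the low-glucose-tolerant line, to 275 ± 13.9 CPM against 551 ± 8.49 CPM in control (edgeR adjusted p = 3.78e-07). In the CoCl2-tolerant line it was at 659.9 ± 7.04 CPM (edgeR adjusted p = 0.0426), a call that ended without any 1 CoCl2-tolerant or control library (up to 0.147). The uniporter subunit SMDT1 rose in the low-glucose-tolerant line, to 11.3 ± 2.87 CPM against 3.52 ± 0.679 CPM in control (edgeR adjusted p = 7.80e-06). MICU3, a regulator of the uniporter, fell in the low-glucose-tolerant line, to 3.52 ± 1.23 CPM against 7.11 ± 0.150 CPM in control (edgeR adjusted p = 0.00118).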
